A study of Mus musculus with 4 samples.

Results

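The cells described here were nonclassical monocytes of mouse heart grafts, picked by their RNA from a single-cell data set. A cell was included when it held more than 200 detected genes, less than 20% mitochondrial RNA molecules, at least 1 molecule of at least 2 of the 3 genes Ace, Adgre4 and Ear2, and at least 1 molecule of Csf1r. It also had to hold fewer than 5 molecules of C1qa and fewer than 5 of Ly6c2, and none of Cd3e or Cdh5. Molecules were counted as UMIs (unique molecular identifiers, one per captured RNA molecule). The rule found 147 cells among the 44626 that passed the limits on genes and mitochondrial RNA, of 53824 deposited, a share of 0.329% (exact binomial 95% interval 0.278 to 0.387%). All intervals given here cover counting error alone.

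Hearts of male mice aged 8 to 10 weeks were grafted into the abdomen of C57BL/6J recipients and removed 5 days later for droplet 3′ RNA sequencing of dissociated, unsorted cells. There were 2 allogeneic grafts from Balb/C donors and 2 syngeneic grafts from C57BL/6J donors, each from a different mouse and none described as treated or genetically altered. The matrix joined 4 libraries told apart by a number on each barcode, and no label paired a number with a graft. The libraries are therefore called 1 to 4, allogeneic and syngeneic grafts could not be compared, and no test was run, because a matrix without a map from libraries to grafts was treated as 1 sample. The libraries held 96020294, 115162601, 138892048 and 166079145 UMIs. Across libraries 308 barcode sequences occurred more than once, 1 member shared its barcode with a kept cell of another library, and no barcode was shared by 2 members.

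Nonclassical monocytes are the blood monocytes that patrol the inner wall of small vessels. They arise from classical, Ly6C-high monocytes, need the orphan nuclear receptor Nr4a1 for that step and depend on signals through the CSF1 receptor for their survival. In the mouse they are known for low Ly6C, high CX3CR1 and high CD43, the product of Spn. Ace encodes the angiotensin-converting enzyme, Adgre4 an adhesion G protein-coupled receptor with EGF repeats, Ear2 a secreted ribonuclease of the eosinophil-associated family and Csf1r the CSF1 receptor. C1qa, a complement subunit, marks tissue macrophages here and Ly6c2 marks classical monocytes, while Cd3e and Cdh5 belong to T cells and endothelial cells.

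The 3 marker genes lie on different chromosomes of the mouse build GRCm38. Ace spans chr11:105967945-105989964 on the plus strand, Adgre4 chr17:55749984-55853662 on the plus strand and Ear2 chr14:44102654-44103534 on the plus strand. Treml4, a gene of the leading set below with similar levels in all 4 libraries, spans chr17:48264295-48275360 on the plus strand. The 250 bases before each start site are shown because the 4 genes share these cells, so that their promoters can be read side by side. Sequences are from RefSeq (GRCm38.p6), on the coding strand from 5′ to 3′, with each match to the ETS core AGGAAG, or to its reverse complement CTTCCT, in capitals. Ace has a second start site inside the gene, from which a shorter, testis form of the enzyme is made, and both windows are given. They are chr11:105967698-105967947 for the upstream start, chr11:105974939-105975188 for the inner start, chr17:55749734-55749983 for Adgre4, chr14:44102404-44102653 for Ear2 and chr17:48264045-48264294 for Treml4.
Ace upstream start: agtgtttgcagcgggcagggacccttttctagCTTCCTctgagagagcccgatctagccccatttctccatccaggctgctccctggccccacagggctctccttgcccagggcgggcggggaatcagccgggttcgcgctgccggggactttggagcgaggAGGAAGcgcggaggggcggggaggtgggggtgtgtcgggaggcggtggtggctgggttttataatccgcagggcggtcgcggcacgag
Ace inner start: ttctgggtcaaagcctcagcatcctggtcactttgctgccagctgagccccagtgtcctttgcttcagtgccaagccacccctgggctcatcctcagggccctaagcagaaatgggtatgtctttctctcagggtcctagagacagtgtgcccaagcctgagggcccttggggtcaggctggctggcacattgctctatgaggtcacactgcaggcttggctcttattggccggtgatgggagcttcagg
Adgre4: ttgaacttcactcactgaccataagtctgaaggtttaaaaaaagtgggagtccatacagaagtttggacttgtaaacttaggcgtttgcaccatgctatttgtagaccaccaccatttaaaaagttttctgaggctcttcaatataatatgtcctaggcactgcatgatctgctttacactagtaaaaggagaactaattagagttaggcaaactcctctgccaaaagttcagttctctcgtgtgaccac
Ear2: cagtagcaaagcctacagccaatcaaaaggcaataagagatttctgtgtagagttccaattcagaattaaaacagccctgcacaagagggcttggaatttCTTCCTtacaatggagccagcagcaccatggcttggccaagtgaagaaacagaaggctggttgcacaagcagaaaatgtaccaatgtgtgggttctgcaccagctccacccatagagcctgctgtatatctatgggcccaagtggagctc
Treml4: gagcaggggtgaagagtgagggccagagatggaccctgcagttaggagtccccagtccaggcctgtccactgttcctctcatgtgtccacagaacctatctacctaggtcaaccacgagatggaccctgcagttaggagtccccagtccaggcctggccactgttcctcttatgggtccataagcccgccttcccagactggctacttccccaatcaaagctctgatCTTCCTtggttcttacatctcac
The core matched 2 times before the upstream Ace start, at -218 and -88, 1 time before Ear2, at -150, and 1 time before Treml4, at -23. It matched neither the inner Ace window nor that of Adgre4. Of 32851 promoters of the same length, 29.5% held this core on either strand, as did 5 of the 12 promoters found for the 15 genes most raised in these cells, those of Cd300e, Heg1, Pglyrp1, Spn and Treml4. The NR4A response element AAAGGTCA occurred in 1.34% and the interferon response motif, GAAA repeated after any 2 bases, in 2.98% of all promoters, and in 0 of those 12. A match here is a stretch of letters and not a bound site.

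The marker genes themselves are given as a description, since they chose the cells. Levels are UMIs pooled over the cells of a group, per 1000000 non-mitochondrial UMIs (CPM). Ace stood at 294 CPM (exact Poisson 95% interval 266 to 325), Ear2 also at 294 CPM and Adgre4 at 201 CPM (178 to 227). By library, Ace was at 496, 148, 210 and 262 CPM, Adgre4 at 356, 112, 161 and 166 CPM and Ear2 at 556, 256, 161 and 198 CPM in libraries 1 to 4. Library 1 was the highest for all 3. Csf1r was at 836, 605, 629 and 920 CPM, and 825 CPM over all members. At least 1 UMI of Ace, Adgre4 and Ear2 was found in 83.0, 81.0 and 74.1% of members (median 7581 UMIs per cell), against 37.6, 0.101 and 0.202% of endothelial cells (median 6742 UMIs), which should lack myeloid genes. When every cell was thinned to 1000 UMIs the shares were 15.6, 28.6 and 20.4% against 8.16, 0.00848 and 0.0254%. Ace was thus also detected in endothelium, at 93.9 CPM, where the enzyme is known to be made, whereas Adgre4 and Ear2 were near 0 there.

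All 3 markers were found together in 56 members, Ace with Adgre4 in 38, Ace with Ear2 in 28 and Adgre4 with Ear2 in 25. The cells with all 3 numbered 25, 5, 1 and 25 in libraries 1 to 4. Of the 2 limited genes, 99 members had no C1qa UMI and 82 no Ly6c2 UMI, while 64 had neither and 83 had at least 1 UMI of them. At the upper edge, 1 member held 4 C1qa UMIs and 10 held 4 Ly6c2 UMIs, while 4 cells outside held 5 to 9 C1qa UMIs and 40 cells outside held 5 to 9 Ly6c2 UMIs with every other condition met.

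Members were counted in each library, and both their number and their share differed among the 4. Libraries 1 to 4 held 34, 24, 8 and 81 of them, out of 10322, 13154, 9850 and 11300 kept cells. The shares of kept cells were 0.329% (0.228 to 0.460%), 0.182% (0.117 to 0.271%), 0.0812% (0.0351 to 0.160%) and 0.717% (0.570 to 0.890%). Library 4 had the highest share and library 3 the lowest, with intervals that did not overlap. The order changed when members were set against all cells with a Csf1r UMI that held no Cd3e or Cdh5 UMI, of which there were 555, 991, 1190 and 5915. Members were then 6.13% (4.28 to 8.46%), 2.42% (1.56 to 3.58%), 0.672% (0.291 to 1.32%) and 1.37% (1.09 to 1.70%), with library 1 the highest. Median depth of the members was 8027, 10506, 7077.5 and 7032 UMIs, and that of all kept cells 5621, 4770.5, 8806 and 12159 UMIs. The rule needs at least 1 UMI of each gene it counts, so a share can move with depth, and its part in these shares was not tested.

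**Figure D1:**
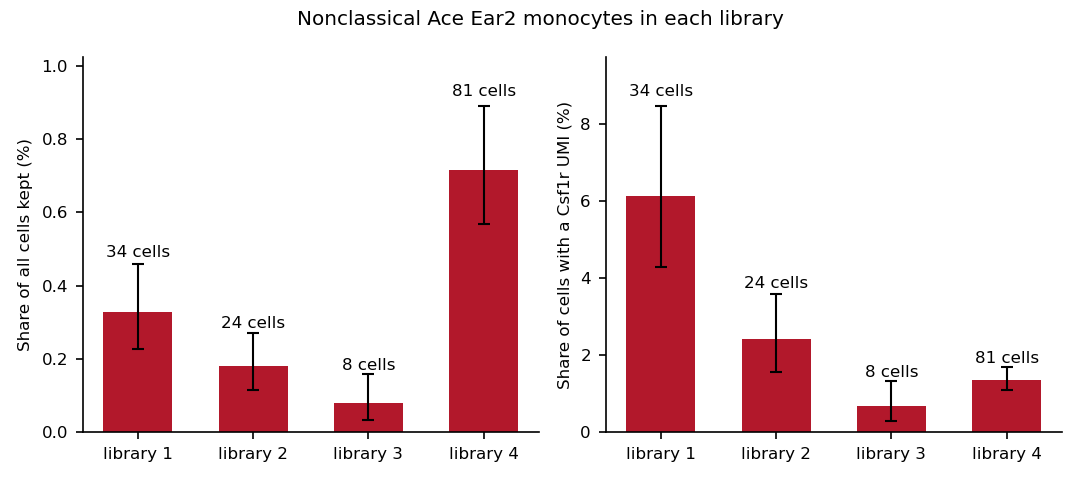
Share of members in each of the 4 unlabelled libraries, in percent of all kept cells (left) and in percent of Csf1r cells (right), with exact binomial 95% intervals as bars. Library 4 is highest on the left at 0.717% and library 1 on the right at 6.13%, and library 3 is lowest in both.

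For comparison, 3 groups of Csf1r cells without Cd3e or Cdh5 were set apart by C1qa, Ly6c2, Folr2 and Mrc1, none of them holding a member. Ly6c2 monocytes (2332 cells, at least 5 Ly6c2 UMIs and fewer than 5 of C1qa) were the classical counterpart. Folr2 Mrc1 macrophages (598 cells, at least 5 C1qa UMIs, both other genes detected and fewer than 5 Ly6c2 UMIs) carried markers of resident macrophages. C1q macrophages (1838 cells) had at least 5 C1qa UMIs and neither Folr2 nor Mrc1. Library 4 gave 95.6% of the Ly6c2 monocytes and 91.3% of the C1q macrophages, against 55.1% of the members, so comparisons were repeated within a library wherever both groups held at least 20 cells (8 comparisons, none in library 3). The groups were also deeper, with medians of 14071, 15258.5 and 16773 UMIs per cell. A gene was called different at a 2-fold ratio, computed as log2((a + 10)/(b + 10)) with a and b in CPM, among 7364 genes with a mean of at least 10 CPM over the 4 groups and without the genes of the rule. Over all these genes the median log2 ratio was 0.04, 0.01 and 0.02 against the 3 groups. These ratios describe pooled cells and carry no test.

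The label was checked against 22 genes of the nonclassical monocyte program that the rule did not use, a list that, like all lists here, was drawn up with earlier results of these data known. Against Ly6c2 monocytes 17 of the 22 were at least 2-fold higher and none 2-fold lower, where 3.6% of all genes were called higher. The counts were 18 higher and 1 lower against Folr2 Mrc1 macrophages (6.3% of all genes higher) and 18 higher and 1 lower against C1q macrophages (4.37%). Median log2 ratios of the list were 1.96, 1.58 and 2.24. Of the list, 16 genes were higher than all 3 groups at once, which held for 123 of all 7364 genes (1.67%). The summed level of the program was 11524 CPM in members against 5827, 4317 and 4842 CPM in the 3 groups and 3145 CPM in endothelial cells. By library it was 13684, 9800, 9836 and 11310 CPM, above every comparison group in every library where that group held 20 cells. Within library 4, for instance, Ly6c2 monocytes stood at 5906 CPM, Folr2 Mrc1 macrophages at 4627 CPM and C1q macrophages at 4874 CPM. Cebpb was the largest part of the members' pooled sum, at 3622 CPM. Some genes of the list varied more among libraries than the sum, such as Cd300e, at 8.01 CPM in library 2 and 237 CPM in library 4.

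**Figure D2:**
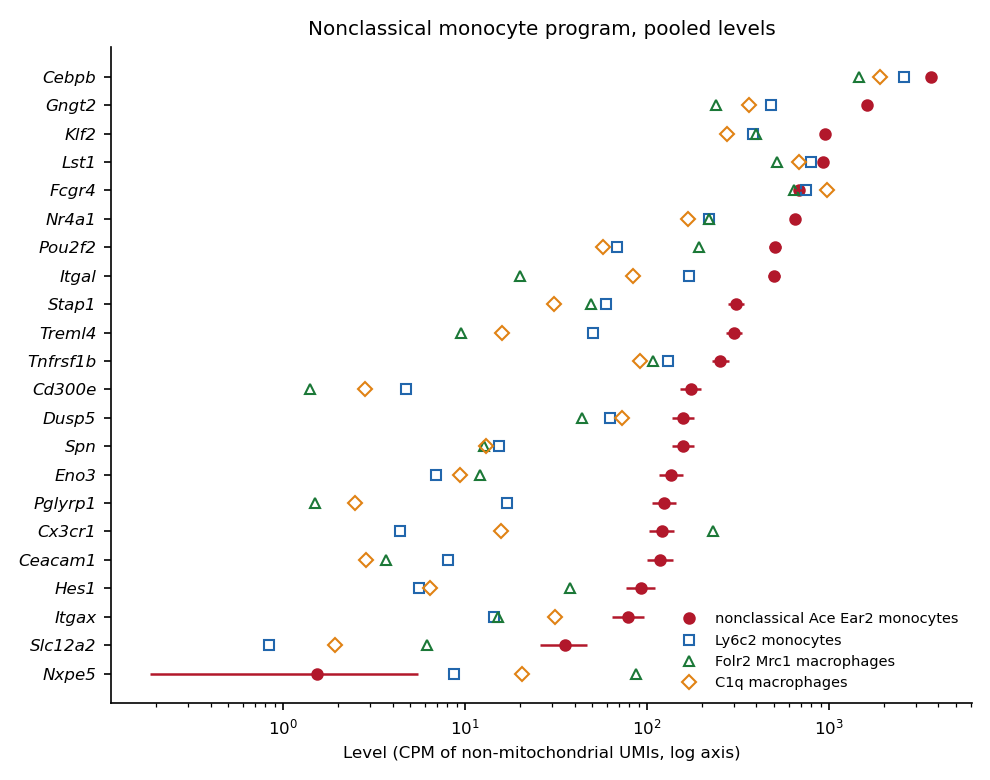
Level of each gene of the nonclassical monocyte program in the members and in the 3 comparison groups, in CPM on a log axis. The members are highest for most genes, while Fcgr4 lies close together in all groups and Cx3cr1 is higher in Folr2 Mrc1 macrophages (232 CPM) than in members (121 CPM).

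The program was also counted cell by cell, after thinning each cell to 1000 UMIs. Members held a median of 6 of its 22 genes, and 90 of 147 (61.2%) held at least 6. The same was true of 9.48% of Ly6c2 monocytes, 2.51% of Folr2 Mrc1 macrophages and 2.997% of C1q macrophages. By library the median was 8, 5, 4.5 and 6 genes. The separation was therefore one of frequency and not a gap, since some members held few of these genes and some Ly6c2 monocytes many.

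**Figure D3:**
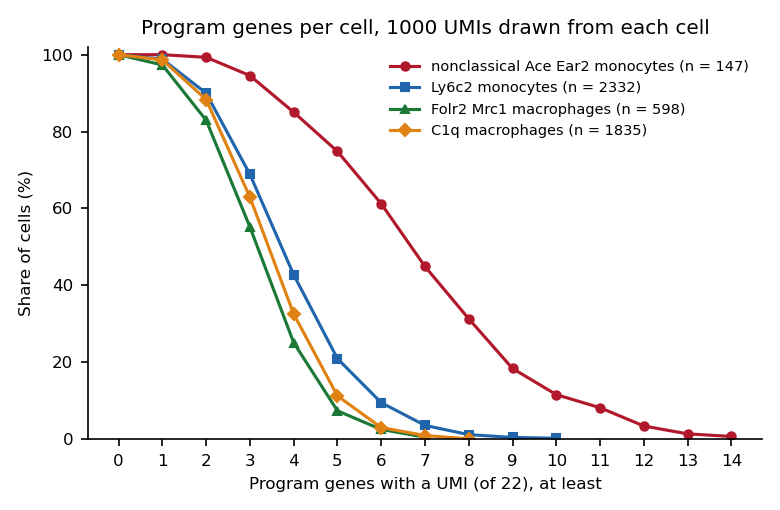
Share of cells, in percent, that hold at least a given number of the 22 program genes after thinning to 1000 UMIs, for members and the 3 comparison groups. At 6 genes the members are at 61.2% and the other groups between 2.51 and 9.48%.

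Among the genes highest in the members relative to every comparison group, a first set encodes proteins of the cell surface. Cd300e, an activating receptor of myeloid cells, was at 178, 8.01, 129 and 237 CPM in libraries 1 to 4. Pooled it reached 174 CPM (152 to 198), against 4.75, 1.41 and 2.83 CPM in Ly6c2 monocytes, Folr2 Mrc1 macrophages and C1q macrophages, the largest ratio of any gene outside the rule (log2 3.64 over the nearest group). The members of libraries 1, 3 and 4 were alike in this gene and those of library 2 held 2 UMIs of it. Treml4, a receptor of the TREM family that binds dying cells, was at 286, 240, 322 and 327 CPM and 300.4 CPM pooled, against 50.7, 9.49 and 16.02 CPM. It was detected in 79.6% of members and 0.286% of endothelial cells (26.5 and 0.0848% after thinning), and its level was close in all 4 libraries. Spn, which encodes CD43, was at 324, 56.0, 145 and 118 CPM and 157 CPM pooled (137 to 181), against 15.5, 12.7 and 12.996 CPM. Ceacam1, an adhesion molecule with inhibitory motifs, was at 175, 292, 80.6 and 31.1 CPM against 8.06, 3.69 and 2.86 CPM. It was highest in library 2 and lowest in library 4, the opposite extremes to Cd300e, and endothelial cells held 65.3 CPM. Adgre5, which encodes the adhesion receptor CD97, was more even at 560, 440, 451 and 324 CPM, against 104, 43.9 and 50.4 CPM.

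The remaining leaders had varied roles. Stap1, an adaptor protein of blood cells, was at 493, 196, 419 and 256 CPM, against 59.7, 49.6 and 30.9 CPM pooled in the comparison groups. Dusp16, a phosphatase of MAP kinases, was at 388, 340, 355 and 462 CPM, against 100, 40.3 and 52.0 CPM. Grk3, a kinase of G protein-coupled receptors, was at 188, 112, 355 and 289 CPM against 43.1, 18.5 and 27.7 CPM. All 3 were above each comparison group's pooled level in all 4 libraries. Eno3, the muscle form of enolase, was at 343, 28.0, 129 and 80.0 CPM against 6.98, 12.04 and 9.36 CPM, and Stk10, a kinase first known from lymphocytes, at 401, 104, 258 and 94.8 CPM against 27.2, 23.1 and 17.3 CPM. Pglyrp1, a secreted protein that binds bacterial peptidoglycan, ranged from 382 CPM in library 1 to 0 in library 2, with 193.5 and 44.4 CPM in libraries 3 and 4, against 17.0, 1.49 and 2.48 CPM. Eno3, Stk10 and Pglyrp1 thus shared a high level in library 1. In library 2 the 0 UMIs of Pglyrp1 stood beside 150 CPM in Ly6c2 monocytes of that library, the opposite direction to the pooled ratio. Those Ly6c2 monocytes also held 45340 CPM of neutrophil markers, against 640 CPM in Ly6c2 monocytes of library 4, and the part of this in the Pglyrp1 level was not tested. Nxpe4 (51.5 CPM), Zfyve9 (63.0 CPM) and Heg1 (63.8 CPM), at log2 ratios of 1.96, 1.82 and 1.81, completed the set with Cxcl12.

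Cxcl12, the chemokine ligand of Cxcr4, was among these 15 genes because of a single cell. Of its 150 UMIs, 131 (87.3%) lay in the deepest member, a cell of library 4 with 57311 UMIs and 6432 genes that also carried 85.2% of the fibroblast marker UMIs described below. Without that cell Cxcl12 was lower than in Folr2 Mrc1 macrophages and C1q macrophages (log2 -0.23 and -0.33). Endothelial cells held 1031 CPM of it.

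**Figure D4:**
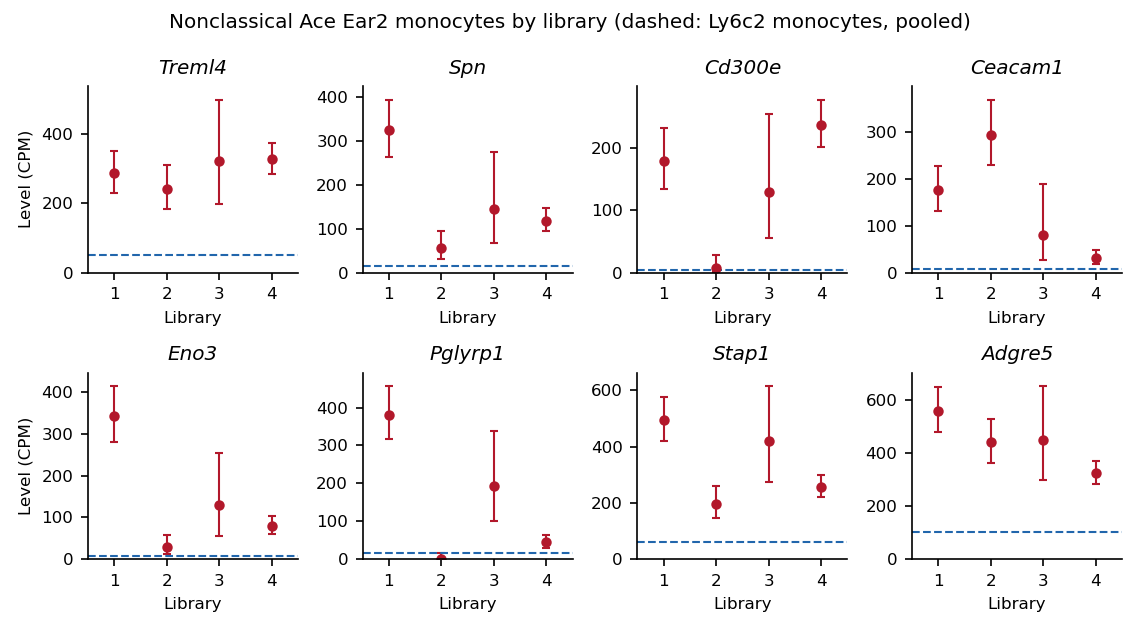
Levels of 8 genes of the leading set in the members of each library, in CPM with exact Poisson 95% intervals, beside the pooled level in Ly6c2 monocytes as a dashed line. Treml4 is close across libraries, and Adgre5 lies between 324 CPM in library 4 and 560 CPM in library 1. Cd300e and Pglyrp1 fall to 8.01 and 0 CPM in library 2, and Ceacam1 is highest there at 292 CPM.

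Among all 123 genes at least 2-fold higher than every comparison group, 93 were also higher, by any amount, in each of the 8 comparisons made within a library. In 11 of the 123, more than 50% of the members' UMIs came from 1 cell. Of the 47 genes lower than all 3 groups (0.638% of all), 30 were lower in each comparison within a library, again by any amount. Here and for single genes below, higher or lower within a library means direction alone.

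Of the transcription factors and their regulators, 8 of 20 were higher and none lower than in Ly6c2 monocytes, 7 higher and 1 lower against Folr2 Mrc1 macrophages, and 7 higher and none lower against C1q macrophages, where 3.6, 6.3 and 4.37% of all genes were higher. Nr4a1, the receptor that nonclassical monocytes need, was at 954, 332, 516 and 640 CPM in libraries 1 to 4 and 651 CPM pooled (608 to 696), against 220, 220 and 169 CPM. It was higher in all 8 comparisons within a library. The related Nr4a2 and Nr4a3 were at 215 and 74.5 CPM, and neither reached a 2-fold difference from any group. Pou2f2, which encodes the octamer-binding factor OCT2, was at 747, 324, 726 and 441 CPM and 506 CPM pooled, against 68.7, 193 and 57.2 CPM. Klf2, a factor of quiescent and flow-exposed cells, was at 947 CPM against 382, 399 and 274 CPM, with endothelial cells higher still at 1657 CPM, and within library 2 it was below Folr2 Mrc1 macrophages. Hes1, a target of Notch signalling, was at 188, 104, 242 and 29.6 CPM, against 5.62, 37.7 and 6.47 CPM. Bcl6, a repressor, was at 96.0 CPM and at least 2-fold higher than each group. Spi1 and Irf8, which all monocytes need, were within 2-fold of every group, at 669 and 407 CPM.

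Genes of survival and death differed in direction. Bcl2 was at 53.8 CPM against 16.4, 19.9 and 20.01 CPM, with 63.6, 8.01, 64.5 and 65.2 CPM by library. The BCL2-related genes Bcl2a1a and Bcl2a1d were at 291 and 370 CPM pooled, at least 2-fold above all 3 groups. By library Bcl2a1a was at 41.3, 228, 32.2 and 455 CPM and Bcl2a1d at 226, 388, 193 and 447 CPM. They are near-identical copies with Bcl2a1b (754 CPM), so reads may be divided among them and each value is uncertain. Bcl2l1, which encodes BCL-XL, went the other way, at 11.5 CPM against 40.3, 61.9 and 53.9 CPM. Mcl1 was within 2-fold of each group. In all, 4 of 12 genes were higher and 1 lower against each of the 3 groups, where 3.6, 6.3 and 4.37% of all genes were higher and 2.02, 5.74 and 2.85% lower.

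Adhesion and migration genes were higher in 7, 12 and 9 of 21 against Ly6c2 monocytes, Folr2 Mrc1 macrophages and C1q macrophages, and 1 was lower in each case, beside 3.6, 6.3 and 4.37% of all genes higher and 2.02, 5.74 and 2.85% lower. Itgal, the alpha chain of LFA-1, was at 579, 268, 339 and 560 CPM in the 4 libraries and 498 CPM pooled, against 169, 20.1 and 84.2 CPM. Itga4, the alpha chain of VLA-4, was at 318, 172, 242 and 709 CPM and 489 CPM pooled, against 216, 63.3 and 132 CPM. Both were higher in all 8 comparisons within a library. Itgax, which encodes CD11c, was at 79.1 CPM against 14.5, 15.2 and 31.1 CPM, and the tetraspanin Cd9 at 323 CPM against 64.6, 135 and 73.0 CPM. Pecam1, an adhesion molecule of endothelium and leukocytes, was at 72.2 CPM against 24.0, 17.8 and 21.2 CPM and 892 CPM in endothelial cells. Itgam and Itgb2, the chains of MAC-1, were within 2-fold of Ly6c2 monocytes at 299 and 745 CPM.

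Of the 6 chemokine receptors with enough UMIs, 2 were higher and 3 lower against Ly6c2 monocytes (3.6 and 2.02% of all genes), 3 higher and none lower against Folr2 Mrc1 macrophages (6.3 and 5.74%), and 2 higher and 2 lower against C1q macrophages (4.37 and 2.85%). Cxcr4 alone was higher than all 3 groups, as were 1.67% of all genes. It was at 556, 340, 500 and 175 CPM, against 63.0, 147 and 64.4 CPM. Cx3cr1, the fractalkine receptor by which these monocytes are usually recognised, was at 223, 52.0, 290 and 82.9 CPM and 121 CPM pooled (103 to 141). It stood at 4.39 CPM in Ly6c2 monocytes and 15.7 CPM in C1q macrophages but at 232 CPM in Folr2 Mrc1 macrophages, which are known to carry it too. Ccr2, by which classical monocytes leave the bone marrow, was at 490, 140, 548 and 135 CPM, and 241 CPM pooled against 509 CPM in Ly6c2 monocytes. Its level in libraries 1 and 3 was near that of the pooled Ly6c2 monocytes. Ccr1 was at 76.1 CPM against 371, 142 and 289 CPM, lower than in Ly6c2 monocytes and C1q macrophages. S1pr5, a sphingosine phosphate receptor, was below the level limit at 15.4 CPM (20 UMIs) but was between 0.0879 and 0.301 CPM in the 3 groups.

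The 15 genes with the lowest ratios to the nearest group are given by their pooled levels, with the exceptions within libraries. Ccl12, a ligand of CCR2, was at 0, 0, 0 and 23.7 CPM in libraries 1 to 4 and 12.3 CPM pooled (7.03 to 19.96), against 238, 787 and 576 CPM. This was the lowest ratio of any gene outside the rule (log2 -3.47 to the nearest group). Ccl2, its close relative, was at 25.4, 244, 64.5 and 240 CPM and 180.5 CPM pooled, against 759, 1134 and 934 CPM, and 40% of its UMIs lay in 1 cell. Fcgr1, the high-affinity Fc receptor CD64, was at 127, 104, 193 and 139 CPM, against 565, 450 and 632 CPM. Fcgr1 was even across the libraries and below every comparison group. Aif1, an actin-binding protein of macrophages, was at 162, 244, 113 and 425 CPM against 917, 964 and 1263 CPM, and Fgl2, a membrane prothrombinase, at 111, 12.01, 80.6 and 274 CPM against 801, 485 and 907 CPM. Pooled without library 4, the log2 ratios to Ly6c2 monocytes were 1.18 and 0.17, and within library 2 Aif1 was higher in members than in Ly6c2 monocytes (244 against 78.9 CPM) and Fgl2 lower (12.01 against 46.4 CPM). Aif1 was also not lower within library 2 than in Folr2 Mrc1 macrophages (log2 0.13) or C1q macrophages (log2 0.54), and Fgl2 not lower within library 1 than in C1q macrophages (log2 0.17). Gatm, an enzyme of creatine synthesis, Gng2, a G protein subunit, and Tbxas1, the thromboxane synthase, were at 23.05, 46.1 and 18.4 CPM with ratios of log2 -1.84, -1.70 and -1.42 to the nearest group. Cndp2, Fam46c, Dennd1a, Maf and Cttnbp2nl were also among the 15 lowest, at 119.9, 12.3, 15.4, 32.3 and 22.3 CPM. Pooled without library 4, Fam46c and Dennd1a turned direction against Ly6c2 monocytes (log2 0.18 and 0.094). Within library 2 Cttnbp2nl (log2 0.58), Fam46c (log2 0.21) and Tbxas1 (log2 0.07) were not lower than in Ly6c2 monocytes. C1qb and C1qc, at 116 and 41.5 CPM, are made together with C1qa, which the rule limits.

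Of 25 chemokines and cytokines, 1 was higher and 6 lower against Ly6c2 monocytes (3.6 and 2.02% of all genes), 2 higher and 10 lower against Folr2 Mrc1 macrophages (6.3 and 5.74%), and 1 higher and 7 lower against C1q macrophages (4.37 and 2.85%). Il1b, the pro-inflammatory interleukin 1 beta, was one of the most abundant messages, at 3446, 7358, 2290 and 5614 CPM and 5267 CPM pooled, against 4542, 589 and 3099 CPM. Cxcl9 and Cxcl10, ligands of CXCR3 that interferon gamma induces, were highest in library 4, at 3.18, 0, 0 and 2112 CPM and at 6.36, 312, 16.1 and 2057 CPM. Ly6c2 monocytes of library 4 held 2867 and 2426 CPM of them. Cxcl16 was at 120 CPM against 239, 576 and 589 CPM, and Ccl8 at 39.2 CPM against 105, 4644 and 481 CPM. Il6 was the gene higher than all 3 groups, at 69.9 CPM against 22.8, 24.4 and 23.1 CPM, and 33.0% of its UMIs came from 1 cell.

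Among Fc receptors, Fcgr4, which encodes CD16-2, an activating receptor for which these monocytes are known, did not separate the members. It was at 312, 208, 242 and 1077 CPM and 685 CPM pooled (641 to 732), against 746, 643 and 982 CPM. Against Ly6c2 monocytes the log2 ratio was -0.12 when pooled but 0.88 within library 2 and 0.45 within library 4. Fcer1g, the shared signalling chain, was at 5047 CPM against 4702, 3504 and 4244 CPM. Fcgr3 was at 445 CPM and at least 2-fold lower only than in Folr2 Mrc1 macrophages (929 CPM).

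Genes of the classical monocyte program were retained in part. Against Ly6c2 monocytes 2 of 16 were higher and 3 lower (median log2 -0.26), while 11 were higher and 1 lower against Folr2 Mrc1 macrophages and 4 higher and 1 lower against C1q macrophages. The shares over all genes were 3.6, 6.3 and 4.37% higher and 2.02, 5.74 and 2.85% lower. Plac8 was at 3373, 1277, 3257 and 5943 CPM and 4299 CPM pooled, against 5910, 291 and 2850 CPM. Chil3, a chitinase-like protein, was at 299, 3491, 452 and 32.6 CPM and Fn1, fibronectin, at 620, 1906, 145 and 200 CPM, both highest in library 2. Ly6c2 monocytes of library 2 held 5150 and 2280 CPM of these 2 genes, and those of library 4 450 and 55.7 CPM. The summed program was 9732 CPM in the members and 10486 CPM in Ly6c2 monocytes. Without the deepest member, which held 11.5% of the UMIs, the members' sum was 9012 CPM. In library 4 it was 8782 CPM instead of 10190 CPM, beside 10123 CPM in Ly6c2 monocytes of that library. Hp and Ly6c1 drew 54.5 and 65.8% of their UMIs from 1 cell each.

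Most C1q and phagocytic genes were lower than in both macrophage groups, and resident macrophage genes were lower than in Folr2 Mrc1 macrophages. Of 15 C1q and phagocytic genes, none was higher and 14 lower against Folr2 Mrc1 macrophages, and none higher and 9 lower against C1q macrophages (5.74 and 2.85% of all genes lower), 2 of the 15 being C1qb and C1qc. The list summed to 4319 CPM against 48243 and 13298 CPM, and 3696 CPM in Ly6c2 monocytes, where 1 gene was higher and 3 lower (3.6 and 2.02% of all genes). Its largest component was Apoe, the lipid carrier apolipoprotein E, at 3154, 3331, 4257 and 105 CPM. Members of library 4 thus held far less Apoe than the others. Ly6c2 monocytes showed the same order at 708 CPM in library 2 and 213 CPM in library 4. All 12 resident macrophage genes with enough UMIs were lower than in Folr2 Mrc1 macrophages, with Lyve1, Cbr2 and Cd163 at 0. Folr2 and Mrc1 are among the 12 and define that group, so their direction was set by the choice of cells. C1q macrophages were chosen without either gene, so neither could be lower in the members than there. Against Ly6c2 monocytes 1 of the 12 was higher and 2 lower (median log2 -0.02), and against C1q macrophages 1 was higher and 3 lower (4.37 and 2.85% of all genes). Maf, a transcription factor of that program, was lower than in all 3 groups.

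Antigen presentation and interferon genes differed widely among members of different libraries. MHC class II genes summed to 20189, 2830, 30748 and 27518 CPM in libraries 1 to 4. In library 1 a single cell held 1630 of the 6350 UMIs. The sums of members with all 3 markers were 10241, 1290 and 27484 CPM in libraries 1, 2 and 4 (25, 5 and 25 cells). In library 3 the only such cell stood at 5219 CPM, so the sums of libraries 1 and 3 were lower in these members. Members of library 2 were the low ones, and comparison groups of the same library were low as well, at 352 CPM in Ly6c2 monocytes, 2732 CPM in Folr2 Mrc1 macrophages and 1252 CPM in C1q macrophages. Within library 4 the members (27518 CPM) lay below Ly6c2 monocytes (30510 CPM), Folr2 Mrc1 macrophages (33558 CPM) and C1q macrophages (39431 CPM). Without the deepest member the members of library 4 stood at 29828 CPM, close to the Ly6c2 monocytes. Cd74, the invariant chain, followed the same order across libraries, at 8991, 1389, 13979 and 12699 CPM. Pooled, 2 of 9 class II genes, H2-DMa and H2-DMb1, were lower than in Ly6c2 monocytes and in C1q macrophages, and both load peptide onto class II molecules (2.02 and 2.85% of all genes lower). Of the 9 class II genes with enough UMIs, H2-Oa alone was at least 2-fold higher, than in Folr2 Mrc1 macrophages and than in C1q macrophages (6.3 and 4.37% of all genes higher).

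Interferon-responsive genes summed to 6483, 2790, 6063 and 16097 CPM in the members, and MHC class I and peptide loading genes to 10349, 4636, 10239 and 25252 CPM. Library 4 was the highest and library 2 the lowest in both. Endothelial cells, which share no lineage with the members, had the same extremes, at 8554, 4123, 6317 and 22005 CPM for the interferon list. Gbp2, a GTPase induced by interferon gamma, was at 57.2, 4.003, 16.1 and 2439 CPM, and Cd274, which encodes PD-L1, at 28.6, 180, 113 and 650 CPM. Against Ly6c2 monocytes 5 of 25 interferon genes were lower and none higher (median log2 -0.74), and none of 15 class I genes passed 2-fold in either direction (3.6% of all genes higher and 2.02% lower). Against Folr2 Mrc1 macrophages 6 of 25 and 5 of 15 were higher (6.3% of all genes). Against C1q macrophages 1 interferon gene was higher and 3 lower (4.37 and 2.85% of all genes). Since most Ly6c2 monocytes came from library 4, the pooled comparison also sets that library against the mixture of all 4, and in library 4 alone the sums were 16097 CPM in members and 17451 CPM in Ly6c2 monocytes.

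**Figure D5:**
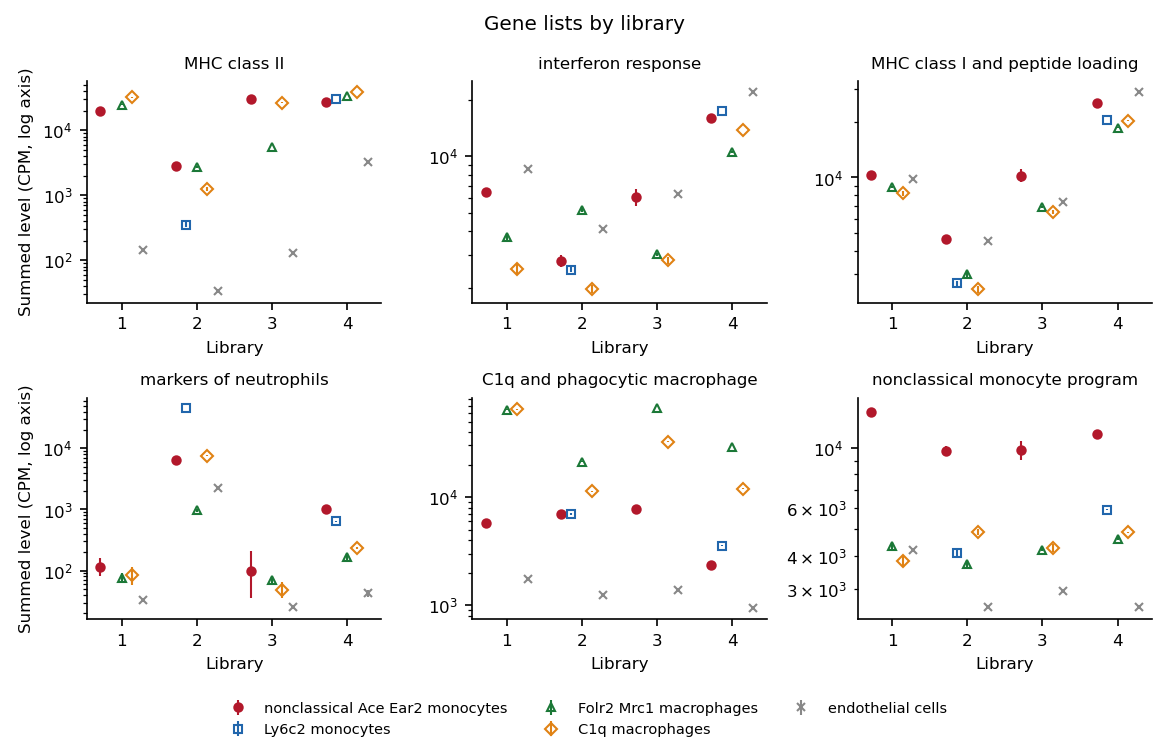
Summed level of 6 gene lists by library, in CPM on a log axis, for members, endothelial cells and each comparison group with at least 20 cells in that library. MHC class II, class I and interferon genes of the members are lowest in library 2, while the summed nonclassical program stays between 9800 and 13684 CPM in all 4 libraries. Some of its genes vary more than the sum.

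Further pathways fixed as lists showed smaller or mixed differences. For lipid uptake and efflux, 5 of 15 genes were higher and 1 lower against Ly6c2 monocytes, 3 higher and 5 lower against Folr2 Mrc1 macrophages and 2 higher and 1 lower against C1q macrophages. Over all genes 3.6, 6.3 and 4.37% were higher and 2.02, 5.74 and 2.85% lower, as holds for the coagulation counts below. Cd36, a scavenger receptor, was at 121 CPM against 18.4, 126 and 25.3 CPM, and Pparg, a nuclear receptor of lipid metabolism, at 33.8 CPM against 2.56, 10.2 and 4.76 CPM. Endothelial cells held 2244 and 79.6 CPM of these 2 genes. Of 9 coagulation genes 3 were higher in each comparison, and 3, 2 and 2 lower. Thbs1, thrombospondin 1, was higher than all 3 groups when pooled, at 976, 4356, 1500 and 54.8 CPM by library, but lower than Ly6c2 monocytes within library 4 (54.8 against 286.5 CPM).

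In glycolysis 4 of 17 genes were lower than in Ly6c2 monocytes and in C1q macrophages, among them Pkm, a pyruvate kinase, at 857 CPM against 1935 and 2019 CPM, and Eno3 alone was higher in both. Against Folr2 Mrc1 macrophages 2 were higher and none lower. Beside these glycolysis counts and the following ones, 3.6, 6.3 and 4.37% of all genes were higher and 2.02, 5.74 and 2.85% lower. Single genes are therefore no result about a list of this size. Of 17 pattern recognition genes 1, 4 and 3 were higher and 1, 0 and 0 lower. Trem3 was above all groups when pooled, at 231 CPM against 99.2, 5.63 and 46.1 CPM. By library it was at 127, 184, 32.2 and 315 CPM, in library 3 below the pooled Ly6c2 monocytes. Of 13 costimulatory and checkpoint genes 0, 2 and 0 were higher and 2, 1 and 2 lower. Of 9 complement genes 0, 2 and 0 were higher and 4, 4 and 3 lower. Of 11 cell cycle genes none passed 2-fold against Ly6c2 monocytes or C1q macrophages and 4 were lower than in Folr2 Mrc1 macrophages. None of 16 ribosomal protein genes was called in any comparison, and of 14 immediate early genes 1 was higher in each and 0, 4 and 0 lower.

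The families of the marker genes were examined in their own right. In the renin-angiotensin system, Ace stood beside Ctsd, a lysosomal protease, at 407 CPM and Atp6ap2, the prorenin receptor, at 113 CPM. Agt, Agtr1b, Agtr2, Ren1, Mas1 and Ctsg had 0 UMIs in the 147 cells (a count of 0 allows up to 3 UMIs in 1301599), and of 4 genes with enough UMIs, 0 were higher and 1, 2 and 2 lower (2.02, 5.74 and 2.85% of all genes lower). Among the ribonucleases, Ear6, Ear10, Ear14, Rnase2a and Rnase2b had 0 UMIs and Ear1 had 1, while Rnase6 was at 123 CPM and was at least 2-fold higher only than in Folr2 Mrc1 macrophages. Ear genes are near-identical copies, so reads shared among them may have been left uncounted. Of the EGF-repeat adhesion receptors, Adgre5 was higher than all 3 groups, as described, and Adgre1, which encodes F4/80, was at 130, 60.1, 210 and 38.5 CPM and lower than in Folr2 Mrc1 macrophages (73.0 against 525 CPM).

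Markers of other cell types were summed in the members. Neutrophil markers reached 114, 6337, 96.7 and 1001 CPM in libraries 1 to 4, and 1 cell of library 2 held 51.5% of their UMIs. S100a9 was the most abundant at 864 CPM, and Ly6c2 monocytes of library 2 held 45340 CPM of the list. Fibroblast markers summed to 4047 CPM, of which 4487 of 5267 UMIs lay in the deepest member. Without it the sum was 627 CPM, and 343 CPM in library 4 instead of 6959 CPM, below the 906 CPM of Ly6c2 monocytes. T and NK markers summed to 221 CPM (9.54, 0, 0 and 422 CPM), with 62.2% of UMIs in 1 cell of library 4 and Gzma the most abundant. Endothelial markers stood at 585 CPM against 28884 CPM in endothelial cells, led by Fabp4 at 384 CPM. Ly6c2 monocytes, Folr2 Mrc1 macrophages and C1q macrophages held 147, 301 and 138 CPM of these markers, less than the members. The part of this in the ratios of genes that endothelial cells also hold was not tested. Dendritic cell markers summed to 148 CPM, with 315, 124, 355 and 59.2 CPM in libraries 1 to 4. The 3 comparison groups held 82.3, 60.6 and 93.6 CPM of them and endothelial cells 316 CPM. Of the members' UMIs of this list, 29.2% lay in 1 cell of library 1. Cardiomyocyte markers summed to 109 CPM, erythroid markers to 133 CPM and mural markers to 73.0 CPM. Platelet markers summed to 24.6 CPM and B cell markers to 13.1 CPM. In the last list Ms4a1, Ly6d and Pax5 were at 0. Eosinophil markers had 2 UMIs in all, with Prg2, Prg3, Epx and Il5ra at 0, although Ear2 takes its family name from eosinophils. The doublet search marked 2 of 147 members (1.36%, 0.165 to 4.83%), both in library 4, against 5.00% of all kept cells, and did not mark the deepest member.

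Members also differed with the markers they held. Those with all 3 marker genes had a mean of 7.48 program genes per thinned cell and a program level of 14001 CPM. The mean was 5.58 with Ace and Adgre4, 5.89 with Ace and Ear2 and 4.84 with Adgre4 and Ear2, at 9775, 11057 and 9350 CPM. The 64 members without any C1qa or Ly6c2 UMI had a mean of 7.30 genes and 13148 CPM, and the other 83 had 5.71 genes and 10381 CPM. Of those 64 cells 26, 19, 7 and 12 came from libraries 1 to 4, so marker state and library moved together, and their parts cannot be told apart in the pooled values. The program level of members with all 3 markers was 15915, 11271 and 12458 CPM within libraries 1, 2 and 4, against 13684, 9800 and 11310 CPM for all members of those libraries.

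Cells just outside the rule are given as a description. The 40 cells with 5 to 9 Ly6c2 UMIs had a mean of 5.65 program genes and 9336 CPM, and the 4 cells with 5 to 9 C1qa UMIs 4 genes and 8529 CPM. The 472 cells with only 1 of the 3 markers had 2.43 genes and 2984 CPM, and the 1961 with none 2.89 genes and 4938 CPM. Cells with 2 markers and a Cdh5 UMI (47 cells) stood at 5807 CPM, and those with 2 markers but no Csf1r UMI (11 cells) at 3071 CPM. Spn, Cd300e, Ceacam1 and Cx3cr1 were lower in the 40 cells just above the Ly6c2 limit than in the members, with Spn at 40.1 CPM, Cd300e at 67.5 CPM, Ceacam1 at 14.8 CPM and Cx3cr1 at 21.1 CPM, while Treml4 was at 308 CPM. Of these cells 38 came from library 4, whose members held 118.5, 237, 31.1, 82.9 and 327 CPM of the same 5 genes.

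Finally, the cells nearest to each member were looked up by their whole RNA profile, leaving out the genes of the rule. Of 15 neighbours, a mean of 3.97 were other members, 4.29 Ly6c2 monocytes, 0.694 C1q macrophages, and 0 Folr2 Mrc1 macrophages or endothelial cells, the rest lying in no named group. By library the mean number of members was 7.44, 4.62, 1.88 and 2.53. Neighbours that were members, of whichever library, were most frequent around cells of library 1. In library 4, where Ly6c2 monocytes abound, 6.80 of the 15 were Ly6c2 monocytes. No member at all was among the 15 neighbours of 36 cells. The most abundant messages of the members, Tmsb4x (17660 CPM), Malat1 (16065 CPM), Fth1 (15463 CPM) and Actb (11043 CPM), were common to most cells, followed by Cd74 and by Lyz2, the myeloid lysozyme, at 9560, 5609, 18397 and 5032 CPM.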

How the data were processed

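Single-cell RNA of 4 mouse heart grafts was analysed from 1 merged matrix of UMI counts deposited by the authors, with 30905 genes and 53824 cells and with no normalization applied. According to the submitters' processing notes and the methods of the study, reads were demultiplexed with CASAVA 1.8 and counted with Cell Ranger 3.0.0 against mm10 and Ensembl 92, and Seurat was used downstream. From the counts as deposited, cells were kept above 200 genes and below 20% mitochondrial UMIs, and UMIs were pooled per group, divided by non-mitochondrial UMIs and given as CPM with exact Poisson 95% intervals. Shares have exact Clopper-Pearson 95% intervals. Total UMIs per library ranged from 96020294 to 166079145, and members held a median of 7581 UMIs (1623 to 57311), so a gene with 0 UMIs in all members is limited to 3 counts in 1301599.

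The members and the gene lists were chosen with earlier results of these data known. Named genes were the genes of the rule, then the 15 genes with the highest and the 15 with the lowest ratio to the nearest comparison group, among genes with a UMI in at least 10% of the members (or of every comparison group for lower genes) and leaving out unnamed gene models, then the 15 most abundant, and genes of the lists. Of 471 symbols in 36 lists, 466 were found. Clec7a, Ear3, Ear4, Ear5 and Ear7 were not matched and are not analysed here. Endothelial cells (11889) were defined by Cdh5 and Pecam1 without Ptprc or Csf1r. Doublets were scored against simulated pairs of cells (50 neighbours), the top 5% of each library were marked, and marked cells were kept except in 1 alternative. Neighbours were taken in 10 principal components of 2000 variable genes. Gene positions are from GENCODE M21 (GRCm38). The steps ran in scikit-learn 1.9.0, scipy 1.17.1, pandas 2.3.3 and numpy 2.4.6 under Python 3.11.15, with plots by matplotlib 3.10.9. They were tested on simulated data, and 17 alternatives were tried. Some genes of the lists are counted but not reported here by name.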

Additional observations from a re-analysis of the deposited data

How the results depend on the processing

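No paired analysis was possible because the results come from no test: the libraries carry no label that maps them to grafts, and comparisons within a library are given as values. The level of the nonclassical program stayed above all 3 groups under each of the 15 alternatives that gave it a value. Over the 15, the list results that were 2-fold in the reported setting (28) gave 420 values, of which 377 were still 2-fold and 12 reversed. Gene results (104) gave 1560 values, of which 1513 were still 2-fold and 14 reversed. Where counts or directions changed, the cause was not tested beyond the smaller number of cells, genes or UMIs that an alternative leaves. In every count below, higher and lower mean at least 2-fold.

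Requiring all 3 markers left 56 members, with 408 genes higher and 338 lower than Ly6c2 monocytes, 668 lower than Folr2 Mrc1 macrophages, 495 higher and 505 lower than C1q macrophages, and 232 higher and 168 lower than all 3 groups, 105 of the 232 being among the 123 reported. A limit of 2 UMIs for C1qa and Ly6c2 gave 283 genes lower than Ly6c2 monocytes, 349 lower than C1q macrophages and 88 lower than all, and a limit of 500 CPM in place of 5 UMIs gave 80 lower than Ly6c2 monocytes and 29 lower than all. Thinning to 1000 UMIs per cell gave 532 higher and 498 lower than Ly6c2 monocytes, 837 higher than Folr2 Mrc1 macrophages (genes lower than Folr2 Mrc1 macrophages numbered 914), 583 and 649 against C1q macrophages, and 243 and 283 against all, with 94 of the 123 shared. Adding 1 CPM instead of 10 gave 512 and 281 against Ly6c2 monocytes, 715 lower than Folr2 Mrc1 macrophages, 531 and 409 against C1q macrophages, and 191 and 130 against all. A mean of at least 50 CPM left 114 higher than Ly6c2 monocytes, 297 higher and 186 lower than Folr2 Mrc1 macrophages, 166 higher than C1q macrophages and 58 higher than all. Leaving out library 4 left 66 members, with 534 genes higher than Ly6c2 monocytes and 371 lower than C1q macrophages. Leaving out libraries 1 to 4 in turn gave 111, 141, 133 and 155 genes higher than all 3 groups, of which 87, 113, 115 and 74 were among the 123. Chosen after seeing the data, the 64 members with no C1qa and no Ly6c2 UMI gave 455 and 400 against Ly6c2 monocytes, 504 and 469 against C1q macrophages, and 227 and 133 against all, and leaving out the deepest member gave 116 higher than all.

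Reversed log2 ratios belonged mostly to genes or lists carried by 1 cell. Fibroblast markers against Ly6c2 monocytes were at -0.42 with all 3 markers, -0.23 with the limit of 2 UMIs, -0.52 without the deepest member and -0.017 in members with no C1qa and no Ly6c2 UMI. Cxcl12 against Folr2 Mrc1 macrophages and C1q macrophages was at -0.16 and -0.26 with all 3 markers, -0.063 and -0.16 with the limit of 2 UMIs, -0.038 and -0.070 without library 4 and -0.23 and -0.33 without the deepest member, and at -0.046 against Folr2 Mrc1 macrophages after thinning. T and NK markers against C1q macrophages were at -0.72 with the limit of 2 UMIs, -0.16 without marked doublets, -0.12 without library 4 and -1.60 without C1qa and Ly6c2 UMIs, and against Folr2 Mrc1 macrophages at -0.74 and -0.34 in the last 2 of these. Mural markers against Folr2 Mrc1 macrophages were at 0.065 without library 3, and neutrophil markers against C1q macrophages at -0.27 without library 4. Without library 4 the ratios to Ly6c2 monocytes were 1.18 for Aif1, 0.18 for Fam46c, 0.094 for Dennd1a and 0.17 for Fgl2. Ly6c2 against Folr2 Mrc1 macrophages was at -1.18 in members chosen to lack it.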

Other observations

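A few genes outside the lists' main results were also higher than all 3 comparison groups. Gngt2, a G protein subunit, was at 1630 CPM in members against 478, 241 and 364 CPM in Ly6c2 monocytes, Folr2 Mrc1 macrophages and C1q macrophages, and higher in all 8 comparisons within a library. Cd209a, a lectin of monocyte-derived dendritic cells, was at 175 and 242 CPM in libraries 1 and 3 and at 0 in libraries 2 and 4, and its 70 UMIs came from 2 cells, 1 of which held 78.6%. It was named after its values were seen. The members of library 3 numbered 8, so their values rest on 62020 UMIs, against 314527, 249787 and 675265 UMIs in libraries 1, 2 and 4.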
